A study of Rattus norvegicus with 9 samples.

Results

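The 10 genes described here encode the basal glucose transporter and 9 enzymes of glycolysis and its end steps, chosen by name: Slc2a1, Hk1, Hk2, Pfkp, Pfkfb3, Aldoa, Pgk1, Eno1, Ldha, and Ldhb. The rule used names and no measured value, although earlier results of these data were known when the names were chosen, and all 10 of the 10 were found among the 35362 genes of the table and passed the filter on low counts, which left 14770 genes. RNA was sequenced from adipose-derived mesenchymal stem cells (ASCs) that were grown from 3 fat depots of Sprague Dawley rats, namely the subcutaneous fat of the groin (SASCs), the perirenal fat at the kidney (PASCs), and the epididymal fat at the testis (EASCs). The rats were male, 6 weeks old, and starved for 12 h before the cells were isolated with collagenase, and the cells were attached for a short time in DMEM/F12 and then kept in high glucose medium with 10% fetal bovine serum to passage 3. No group received a treatment or carried an altered gene, and the fat depot was the only difference that the labels gave between the groups. Each group held 3 samples. The methods name 6 rats and describe RNA taken from single culture wells, with 6 replicates per group. They do not say which rats supplied the wells, and all sample titles begin with sd1, which is not explained. The p-values therefore measure the spread between these samples, which may be that of culture wells and so technical.

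Glucose enters a mammalian cell through a transporter, is trapped as glucose 6-phosphate by a hexokinase and is split to pyruvate by the glycolytic enzymes in the cytosol. Lactate dehydrogenase then converts pyruvate to lactate, which restores the NAD+ that glycolysis consumes. In fat, the transporter of the insulin-responsive adipocyte differs from the one that most dividing and undifferentiated cells use. Many steps, though not all, are served by several isozymes encoded by separate genes.

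Total counts ranged from 17591916 to 30299032 per library. Ribosomal RNA genes held 13.6% ± 2.81 (SD, n = 3) of the counts in SASCs, 27.6% ± 5.28 in PASCs, and 28.5% ± 12.2 in EASCs, with a highest value of 40.3% in EASCs 3. All 8 markers of mesenchymal stem cells passed the filter, and their summed level was 14881 ± 437 CPM (counts scaled to a fixed library size by TMM) in SASCs, 22979 ± 2267 in PASCs, and 25336 ± 1393 in EASCs. Col1a1 made up most of that sum in every group (10697, 19134, and 20332 CPM on average), and single markers differed. Eng, Itgb1, Cd44, and Col1a1 were higher in both visceral groups and Nt5e was higher in EASCs, while Pdgfra fell from 1543 ± 37.0 CPM in SASCs to 278 ± 17.6 and 235 ± 8.46 in PASCs and EASCs, Pdgfrb was lower in both, and Thy1 was lower in EASCs and higher in PASCs, all by edgeR. The summed level of 10 genes of dividing cells ran from 84.1 to 86.7 CPM in SASCs, 725 to 743 in the PASCs libraries, and 421 to 438 CPM in EASCs. Markers of mesothelium (6, of which 5 were tested) summed to 18.9 to 20.4 CPM in SASCs, 94.7 to 102 in the PASCs libraries, and 126 to 137 CPM in EASCs, and those of adipocytes (4, of which 3 were tested) to 55.3 to 60.7, 13.5 to 14.4, and 5.64 to 6.20 CPM. Endothelial markers summed to 38.8 to 41.6 CPM in SASCs, 10.96 to 13.2 in the PASCs libraries, and 26.7 to 29.7 CPM in EASCs, with Kdr and Pecam1 lower in both visceral groups, though Tek was higher in both (log2 1.71 and 1.66 in PASCs and EASCs, edgeR adjusted p = 1.28e-10 and 2.31e-10) and Cdh5 in EASCs passed no test (log2 0.09, adjusted p = 0.561). Macrophage and leukocyte markers summed to 37.0 to 39.9, 56.2 to 57.6, and 83.4 to 83.7 CPM. All 10 genes of dividing cells and all 5 tested mesothelial markers were higher in both visceral groups by edgeR, while the mesothelial Krt19 was at 0 in every PASCs library and Upk3b reached at most 0.0976 CPM in SASCs. Of the erythrocyte and muscle markers only 1, Myh1, was tested. It made up most of their sum, which ran from 2.20 to 2.72, 15.7 to 15.99, and 11.9 to 14.9 CPM in the 3 groups, while Hbb and Ckm were too low to test.

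The promoters of the members that moved about 2-fold or more, and of the transporter, are shown because these members moved together or, for Pfkfb3, the other way. RefSeq entries on GRCr8 matched 9 of the 10 members, at 13 start sites, with no entry for Pgk1. The 250 bases before each start were searched on both strands for ACGTG and GCGTG, the cores of the hypoxia response element, which read CACGT and CACGC on the other strand. Each sequence is written 5′ to 3′ on the strand of its gene and ends at the base before the start, with the matches in capitals. A run of CACGTG holds ACGTG on both strands and is also the E-box of many helix-loop-helix factors.
Ldha, chr1:106507842-106508091, plus strand: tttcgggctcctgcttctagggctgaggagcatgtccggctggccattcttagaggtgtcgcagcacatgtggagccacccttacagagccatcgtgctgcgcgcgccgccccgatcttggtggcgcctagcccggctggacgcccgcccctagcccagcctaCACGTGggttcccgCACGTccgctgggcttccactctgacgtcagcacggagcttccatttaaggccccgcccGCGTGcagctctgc
Eno1, first start, chr5:166002617-166002866, plus strand: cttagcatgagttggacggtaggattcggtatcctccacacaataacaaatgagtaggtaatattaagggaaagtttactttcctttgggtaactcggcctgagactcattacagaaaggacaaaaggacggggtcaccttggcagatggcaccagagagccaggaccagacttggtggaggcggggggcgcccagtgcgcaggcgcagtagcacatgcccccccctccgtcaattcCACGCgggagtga
Eno1, second start, chr5:166003111-166003360, plus strand: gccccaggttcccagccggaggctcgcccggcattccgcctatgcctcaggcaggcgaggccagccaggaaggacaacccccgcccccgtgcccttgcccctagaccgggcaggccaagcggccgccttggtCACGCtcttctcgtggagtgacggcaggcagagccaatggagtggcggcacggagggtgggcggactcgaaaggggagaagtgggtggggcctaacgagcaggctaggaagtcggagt
Slc2a1, chr5:138002272-138002521, plus strand: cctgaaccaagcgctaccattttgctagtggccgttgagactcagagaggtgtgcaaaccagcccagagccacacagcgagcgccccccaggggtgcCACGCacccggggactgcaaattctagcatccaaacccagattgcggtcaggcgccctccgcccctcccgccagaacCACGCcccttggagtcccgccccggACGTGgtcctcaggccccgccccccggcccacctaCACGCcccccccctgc
Pfkfb3, chr17:71944683-71944932, plus strand: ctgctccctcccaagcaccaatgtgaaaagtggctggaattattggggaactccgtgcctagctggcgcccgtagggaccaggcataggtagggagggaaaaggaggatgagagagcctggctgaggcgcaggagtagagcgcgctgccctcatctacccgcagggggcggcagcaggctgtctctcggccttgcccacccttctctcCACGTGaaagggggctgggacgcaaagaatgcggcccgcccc

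The Ldha window held 3 matches to ACGTG and 1 to GCGTG, the Slc2a1 window 1 and 3, and each Eno1 window 1 match to GCGTG. Pfkfb3, whose level went the other way, held 2 matches to ACGTG, which are both strands of a single CACGTG. Of the 13 member promoters, 5 held ACGTG, 6 held GCGTG, 9 held either, and 8 of the 9 members with a promoter held one at some start. Among all 33469 promoters of the same length, 16.6% held ACGTG, 25.9% held GCGTG, and 36.7% held either. Hk2 held neither. Both cores hold CG, and the shares of all promoters were not matched for GC content, which ran from 48.8 to 70.0% in the member windows. The 8 of 9 is a count per gene over all its starts, while those shares are per promoter, so the values cannot be set against each other. The matches are of letters and say nothing of binding in these cells.

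All fold changes below are log2 values from 1 edgeR model of the 9 samples, given with their standard error (SE), and p-values were adjusted over the 14770 genes. Slc2a1, Hk1, Aldoa, Pgk1, Eno1, and Ldha were higher in both visceral groups than in SASCs, although the calls of Hk1 and Aldoa were lost in both when libraries were scaled by total counts. Pfkfb3 was lower in both, Hk2 was lower in EASCs, Ldhb was lower in PASCs, and Pfkp passed no test with TMM. Against SASCs, 6 members were higher in EASCs (35.5% of all genes tested were higher by the same rule) and 2 were lower (34.3% of all genes). In PASCs 6 members were higher and 2 lower, where 34.6% of all genes were higher and 34.6% lower. With a fold change above 2 as well, 2 members were higher in EASCs (background 13.6%) and 1 was lower (14.2%), and 3 were higher in PASCs (12.0%) and 0 lower (14.9%). With total counts in place of TMM, 4 members were higher in EASCs (background 15.3% of all genes) and 4 lower (46.7%), and 4 were higher in PASCs (16.0%) and 3 lower (42.9%). Past 2-fold under that scaling, 0 members were higher in EASCs (9.13%) and 1 lower (23.2%), and 2 were higher in PASCs (8.54%) and 1 lower (21.5%). Total counts include ribosomal RNA, which held 13.6% of the counts in SASCs, 27.6% in PASCs, and 28.5% in EASCs. The SE was also wider with total counts, at 0.16 beside 0.05 for Slc2a1 in EASCs. The part of ribosomal RNA in these shifts was not tested. The count of 0 lower past 2-fold in PASCs was also 0 at an unadjusted p under 0.05 in edgeR and 0 with DESeq2 and limma, but it was 1 (Pfkfb3) with total counts and without PASCs 1. The median log2 fold change of the 10 members was 0.41 in EASCs and 0.44 in PASCs, beside 0.01 and -0.01 for all genes tested. Samples of EASCs and SASCs did not overlap for 9 of the 10 members, beside 72.1% of all genes, and PASCs were apart from SASCs for 8 of 10, beside 71.6%. These comparisons share the SASCs samples, so they are not independent of each other. In this bulk RNA, fewer cells of a type and less RNA per cell cannot be told apart.

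**Figure D1:**
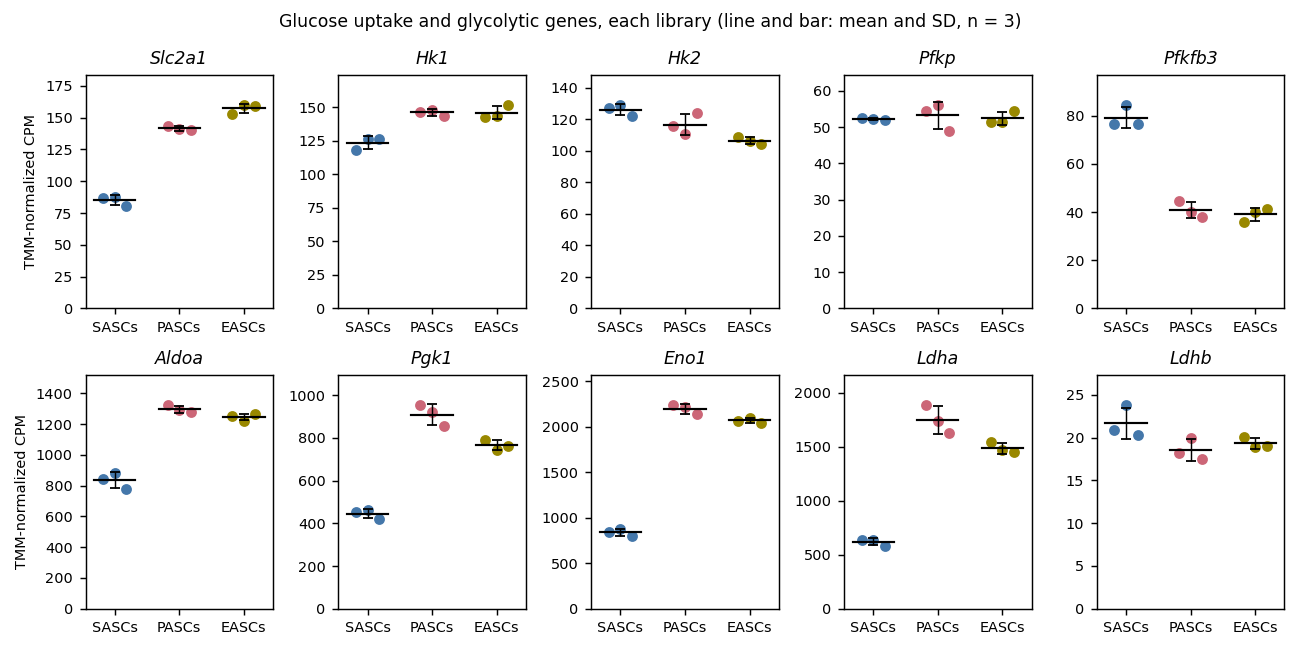
TMM-normalized CPM (vertical axes, from 0) of the 10 genes in each of the 9 libraries, with points for libraries, a line for the group mean, and a bar for the SD (n = 3). Slc2a1, Aldoa, Pgk1, Eno1, and Ldha lie lower in SASCs than in the other groups, Pfkfb3 lies higher, and the Pfkp groups overlap.

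Slc2a1 encodes GLUT1, the transporter for basal glucose uptake, and lies at chr5:138154677-138182897 (rn6). Its level was 86.8, 88.0, and 80.4 CPM in SASCs 1, 2, and 3, 144, 141, and 140 CPM in PASCs, and 153, 160, and 159 CPM in EASCs. The 3 groups did not overlap, and every visceral sample lay above every subcutaneous one. The level rose 1.85-fold in EASCs (log2 0.89 ± 0.05 SE, adjusted p = 3.78e-14) and 1.66-fold in PASCs (log2 0.73 ± 0.05, adjusted p = 2.34e-12). EASCs were above PASCs by 0.15 ± 0.05 on the log2 scale (adjusted p = 0.0306), a call that was lost when any of PASCs 2, PASCs 3, EASCs 2, or EASCs 3 was left out, with total counts, and without the filter on low counts. Slc2a1 took 63.7% ± 1.74 of the level per length of 7 genes of the Slc2a family, Slc2a13 among them, in SASCs. Its share was 80.3% ± 0.853 in PASCs and 83.3% ± 0.910 in EASCs.

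Slc2a4 and Slc2a12, other transporters of the family, moved the other way. Slc2a4, which encodes the insulin-responsive transporter GLUT4 of adipocytes and muscle, fell from 10.8 ± 0.536 CPM in SASCs to 5.13 ± 0.428 in PASCs (log2 fold change -1.07 ± 0.15, adjusted p = 5.42e-07) and 1.82 ± 0.530 in EASCs (-2.57 ± 0.17, adjusted p = 3.58e-13). Slc2a12 fell by 1.64 on the log2 scale in EASCs (adjusted p = 9.90e-11) and by 1.35 in PASCs (edgeR adjusted p = 2.66e-09). The adipocyte markers were lower in the same groups, and their part in the Slc2a4 result was not tested.

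The hexokinases Hk1 and Hk2 catalyse the same first phosphorylation, and both proteins can bind to mitochondria. Hk1, the widespread form (chr20:31911460-31979780), was at 118, 126, and 126 CPM in SASCs, 147, 148, and 144 CPM in PASCs, and 143, 144, and 152 CPM in EASCs. All SASCs samples were below all visceral samples, and the visceral groups overlapped. The difference was small, 0.24 ± 0.05 in EASCs (adjusted p = 2.63e-04) and 0.24 ± 0.05 in PASCs (edgeR adjusted p = 2.33e-04), and with libraries scaled by their total counts in place of TMM it was -0.16 and -0.08 and passed in neither (adjusted p = 0.397 and 0.675), where the median of all genes was -0.39 and -0.33.

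Hk2, the form with a more restricted and more inducible expression (chr4:113559396-113609897), was at 127, 129, and 122 CPM in SASCs, 116, 111, and 124 CPM in PASCs, and 109, 106, and 104 CPM in EASCs. EASCs lay below the other groups without overlap, while PASCs and SASCs overlapped. Hk2 fell by 0.25 on the log2 scale in EASCs (SE 0.06, adjusted p = 3.17e-04). The PASCs value was -0.11 ± 0.06 (adjusted p = 0.0695), and it passed the threshold with DESeq2 (adjusted p = 0.0347), with total counts (adjusted p = 0.0143), and without PASCs 3 (adjusted p = 0.0190). Per length, Hk2 made up 33.5% ± 1.19 of the Hk1 and Hk2 level in SASCs, 28.3% ± 1.48 in PASCs, and 26.5% ± 1.04 in EASCs. The log2 ratio of Hk2 to Hk1 counts within a library, which no scaling between libraries can change, was 0.49 lower in EASCs and 0.36 lower in PASCs than in SASCs. By the two-sided exact permutation test both had p = 0.1, the smallest that 3 against 3 samples can give, and EASCs against PASCs gave p = 0.2.

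The phosphofructokinase step commits the sugar to glycolysis, and Pfkp encodes its platelet isozyme (chr17:68510761-68574447). Pfkp was at 52.6, 52.1, and 52.0 CPM in SASCs, 54.6, 56.1, and 49.0 CPM in PASCs, and 51.3, 51.4, and 54.5 CPM in EASCs. The groups overlapped in every comparison, and no difference passed the test (log2 0.00 ± 0.06 for EASCs, adjusted p = 0.957, and 0.03 ± 0.06 for PASCs, adjusted p = 0.699). With total counts the EASCs value was -0.39 and passed (adjusted p = 0.0270), at the median of all genes under that scaling, which was also -0.39. The liver isozyme Pfkl, which is not among the 10 members, went from 81.1 ± 2.75 CPM in SASCs to 184 ± 12.8 in PASCs and 202 ± 8.49 in EASCs (log2 1.18 ± 0.06, adjusted p = 4.04e-16, and 1.31 ± 0.06, adjusted p = 3.52e-17). The Pfkp share of the 3 isozymes per length was therefore 35.1% ± 0.491 in SASCs, 20.8% ± 0.895 in PASCs, and 19.3% ± 1.01 in EASCs, and the Pfkl share 52.5% ± 1.32, 69.4% ± 0.912, and 71.5% ± 1.78. The summed level of the step was 54.1 ± 0.908 CPM per kb in SASCs, 92.8 ± 5.94 in PASCs, and 98.8 ± 1.77 in EASCs.

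Pfkfb3 encodes a bifunctional enzyme that makes fructose 2,6-bisphosphate, an activator of phosphofructokinase, and it was the member that fell most (chr17:70632801-70713736). It was at 76.6, 84.4, and 76.7 CPM in SASCs, 44.5, 40.1, and 38.0 CPM in PASCs, and 35.9, 40.2, and 41.1 CPM in EASCs. Every SASCs sample was above every visceral sample, and PASCs and EASCs overlapped. Against SASCs it fell by 1.02 on the log2 scale in EASCs (SE 0.07, adjusted p = 5.71e-13) and by 0.95 in PASCs (SE 0.07, edgeR adjusted p = 2.29e-12). The value lies at the 2-fold line, so that the count of members lower by more than 2-fold in EASCs went from 1 to 0 without SASCs 2 or without EASCs 1, and in PASCs from 0 to 1 without PASCs 1. Pfkfb3 held 77.2% ± 0.856 of the PFKFB family level per length in SASCs, 64.8% ± 2.73 in PASCs, and 65.4% ± 2.68 in EASCs. The family sum was 15.4 ± 0.702 CPM per kb in SASCs, 9.43 ± 0.477 in PASCs, and 8.95 ± 0.292 in EASCs, and in each visceral library this sum was lower, and the phosphofructokinase sum higher, than in any SASCs library.

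**Figure D2:**
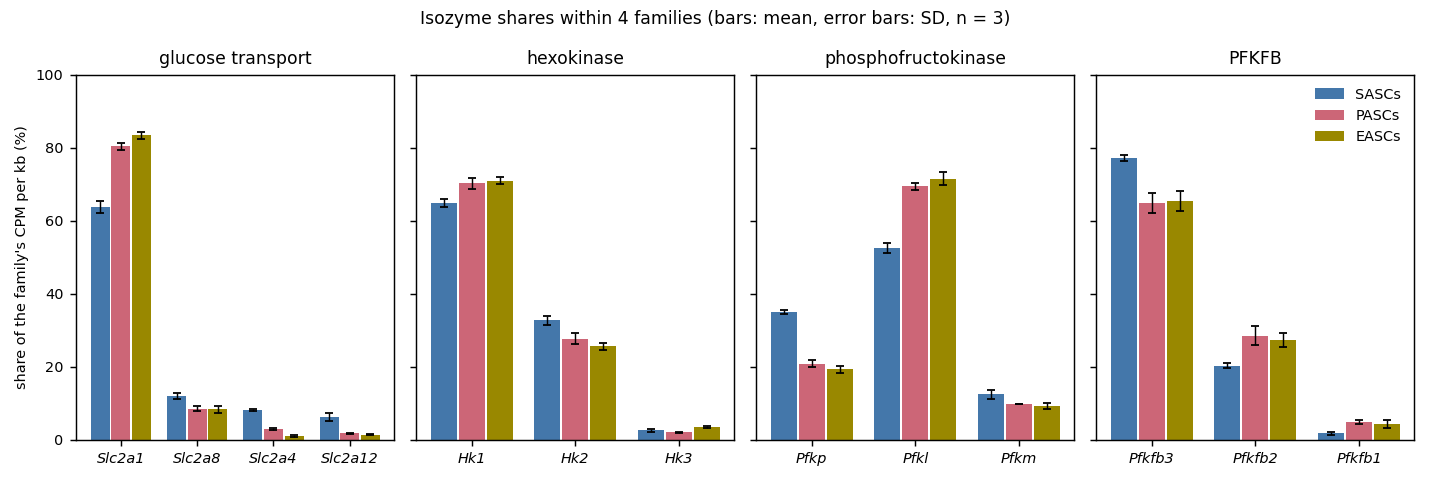
Share (percent, vertical axis) of each gene in its family's summed CPM per kb, for Slc2a (headed glucose transport), hexokinase, phosphofructokinase, and PFKFB genes. Bars give group means and error bars the SD (n = 3), and less abundant family members are in the sum but not drawn. Slc2a1 and Pfkl take larger shares in PASCs and EASCs than in SASCs, and Pfkp, Hk2, and Pfkfb3 smaller ones.

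Aldoa, Pgk1, Eno1, and Ldha were the most abundant of the set. Aldoa, the aldolase that splits fructose 1,6-bisphosphate (chr1:198228387-198233754), was at 847, 882, and 778 CPM in SASCs, 1322, 1294, and 1277 CPM in PASCs, and 1253, 1223, and 1265 CPM in EASCs. SASCs lay below both groups without overlap, and EASCs lay below PASCs. Aldoa rose by 0.58 ± 0.06 in EASCs (adjusted p = 7.93e-10) and by 0.64 ± 0.06 in PASCs (edgeR adjusted p = 1.20e-10). EASCs and PASCs did not pass the test (-0.06 ± 0.06, adjusted p = 0.484). With total counts the Aldoa values were 0.18 and 0.31 and did not pass (adjusted p = 0.343 and 0.0932). Aldoc, the brain form, made up 7.44% ± 0.112 of the aldolase level per length in SASCs and 2.52% ± 0.0925 and 2.49% ± 0.133 in PASCs and EASCs.

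Pgk1 encodes phosphoglycerate kinase, the first step of glycolysis that yields ATP, and lies on the X chromosome (chrX:77263399-77279373). Its level was 452, 464, and 420 CPM in SASCs, 952, 919, and 854 CPM in PASCs, and 791, 743, and 760 CPM in EASCs. The 3 groups did not overlap. Pgk1 rose by 0.78 ± 0.06 in EASCs (adjusted p = 2.35e-12) and by 1.03 ± 0.06 in PASCs (edgeR adjusted p = 6.50e-15), and EASCs were below PASCs by 0.25 (log2 -0.25 ± 0.06, adjusted p = 0.00126), a call that was lost with total counts (-0.32, adjusted p = 0.213).

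Eno1 encodes alpha-enolase, which makes phosphoenolpyruvate (chr5:167288223-167299613). It was at 843, 878, and 802 CPM in SASCs, 2235, 2215, and 2135 CPM in PASCs, and 2067, 2097, and 2046 CPM in EASCs. No sample of SASCs came near the visceral samples, and EASCs lay just below PASCs. The level was 2.46-fold higher in EASCs (log2 1.30 ± 0.06, adjusted p = 2.13e-17) and 2.61-fold higher in PASCs (log2 1.38 ± 0.06, adjusted p = 5.45e-18), and EASCs against PASCs gave -0.08 ± 0.06 (adjusted p = 0.277). In SASCs Eno1 ranked 123 of the 14770 tested genes by level per length, and in PASCs and EASCs it ranked 32 and 35. Eno1 held 99.8% ± 0.0210 of the enolase level in SASCs and 99.6% ± 0.0435 in PASCs. The muscle form Eno3 rose from 1.52 ± 0.231 CPM to 6.04 ± 0.703 in PASCs (log2 1.99 ± 0.19, adjusted p = 4.41e-10) and 5.22 ± 0.234 in EASCs (1.78 ± 0.19, adjusted p = 5.01e-09). The skeletal muscle marker Myh1 was higher in the same groups (log2 2.77 in PASCs and 2.56 in EASCs), while Ckm, the other one found, was too low to test (means of 0.141 CPM in SASCs, 0.0629 in PASCs, and 0.0270 in EASCs), and their part in the Eno3 result was not tested.

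Lactate dehydrogenase is a tetramer of A and B subunits, with A-rich forms in tissues that make lactate and B-rich forms in tissues that use it. Ldha, the A subunit (chr1:102900288-102909713), was at 642, 641, and 584 CPM in SASCs, 1885, 1737, and 1628 CPM in PASCs, and 1544, 1467, and 1450 CPM in EASCs. On the log2 scale it had the widest range of group means of the 10 members, while in CPM that of Eno1 was wider. All 3 groups were separate, with PASCs highest. Ldha rose 2.39-fold in EASCs (log2 1.26 ± 0.06, adjusted p = 3.37e-16) and 2.81-fold in PASCs (log2 1.49 ± 0.06, adjusted p = 8.23e-18), and EASCs were below PASCs (log2 -0.24 ± 0.06, adjusted p = 0.00383), which did not pass with total counts (-0.30, adjusted p = 0.252).

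Ldhb, the B subunit (chr4:176701980-176719974), stood at 20.9, 23.8, and 20.4 CPM in SASCs, 18.2, 19.96, and 17.5 CPM in PASCs, and 20.1, 18.9, and 19.0 CPM in EASCs. Its SASCs samples were above those of the other groups, by less than 1 CPM at the nearest. The PASCs value was -0.22 ± 0.09 (adjusted p = 0.0324), and it did not pass without SASCs 2, PASCs 1, or PASCs 3, one at a time, or without the filter on low counts. In EASCs it was -0.17 ± 0.09 (adjusted p = 0.103), and with total counts it was -0.56 and passed (adjusted p = 0.00270), where the median of all genes was -0.39. Ldhb made up 4.42% ± 0.277 of the Ldha and Ldhb level per length in SASCs, 1.39% ± 0.117 in PASCs, and 1.70% ± 0.0114 in EASCs. The log2 ratio of Ldhb to Ldha counts was 1.42 lower in EASCs and 1.71 lower in PASCs than in SASCs, each with no overlap between groups and p = 0.1 by the exact permutation test, the smallest possible.

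**Figure D3:**
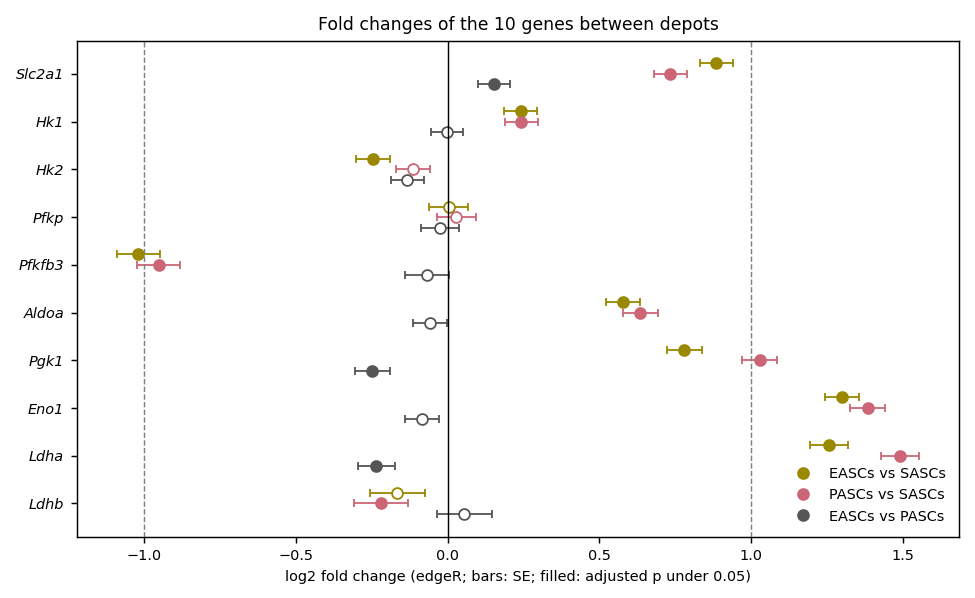
Log2 fold changes (horizontal axis) of the 10 genes in the 3 comparisons, with SE bars, filled points for adjusted p under 0.05 in edgeR, and dashed lines at a 2-fold change. Eno1 and Ldha lie past the right line against SASCs in both groups, Pgk1 in PASCs, and Pfkfb3 at the left line, while the EASCs against PASCs values stay within 0.25 of 0.

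Between the visceral depots the members differed little. In EASCs against PASCs, 1 member was higher (Slc2a1, background 16.1% of all genes) and 2 were lower (Pgk1 and Ldha, background 14.5%), and past 2-fold 0 were higher (5.19%) and 0 lower (2.20%), in edgeR at any p and likewise with DESeq2 and limma. With total counts 0 members were higher (background 7.64%) and 0 lower (7.14%) at any fold, and likewise past 2-fold (4.40% and 2.44%). Samples did not overlap for 6 of 10 members, beside 41.2% of all genes. The median log2 fold change of the members was -0.06, beside -0.01 for all genes.

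Summed over the 10 members, of which Eno1, Ldha, Aldoa, and Pgk1 held most counts, shares need no scaling between libraries. The members took 0.419 to 0.462% of the counts outside ribosomal RNA in SASCs, 0.834 to 0.904% of those in PASCs, and 0.750 to 0.779% of those in EASCs. With ribosomal RNA rows removed before scaling, no member's log2 fold change moved by more than 0.00563. Without EASCs 3, the library richest in ribosomal RNA, the counts against SASCs remained 6 higher and 2 lower in EASCs, and the call of Slc2a1 against PASCs was lost. Summed levels of the dividing-cell, mesothelial, and macrophage markers given above, and the single muscle marker Myh1, were also higher in both visceral groups. Their part in these differences was not tested.

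**Figure D4:**
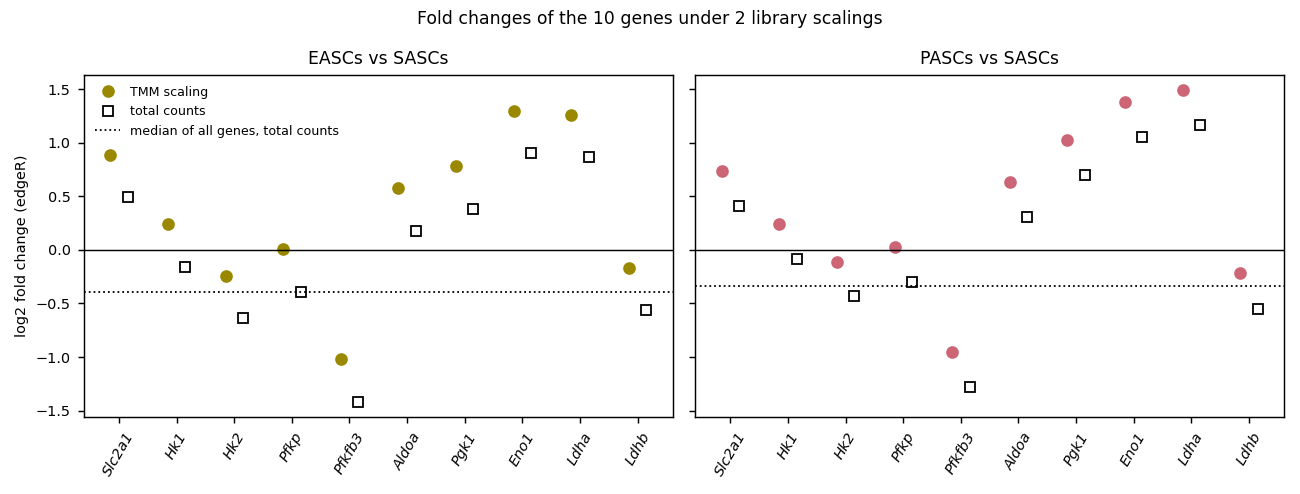
Log2 fold changes against SASCs (vertical axis) of the 10 genes with TMM scaling (filled) and with total counts (open squares), and the median of all genes under total counts (dotted). Without TMM all values shift down by about the shift of the median, which is -0.39 for EASCs and -0.33 for PASCs. Hk1 and Pfkp change sign, and Slc2a1, Aldoa, Pgk1, Eno1, and Ldha stay above 0, though Aldoa no longer passes the test.

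Processed copies of glycolytic genes are common in the rat genome and can take or give reads. The table listed 1 row like Hk1, 11 like Aldoa (9 with no count in any library), 10 like Pgk1 (5 with none), 34 like Eno1 (22 with none), 32 like Ldha (25 with none), and 2 like Ldhb, and none for Slc2a1, Hk2, Pfkp, and Pfkfb3. All copies of Ldha together held 1.85 to 2.82% of the Ldha counts and those of Eno1 0.168 to 0.585% of the Eno1 counts. The largest was RGD1562690, a copy of Ldha, which was at 13.5 to 17.0 CPM in SASCs, 33.9 to 36.5 in the PASCs libraries, and 30.3 to 34.2 CPM in EASCs, with log2 changes of 1.23 ± 0.09 in PASCs (adjusted p = 1.32e-12) and 1.11 ± 0.09 in EASCs (adjusted p = 1.04e-11). Copies of Eno1 with a mean of at least 10 counts were Eno1-ps1, LOC102551872, LOC685431, LOC102555996, and RGD1563294. Of these, Eno1-ps1 and RGD1563294 rose in both visceral groups, LOC102551872 fell by 2.14 in EASCs and 1.79 in PASCs on the log2 scale, LOC102555996 fell by 2.52 and 1.54, and LOC685431 passed no test in edgeR. Adding all copies to their members changed no call among the 30 values and moved none by more than 0.00725. Adding counted rows cannot recover reads left out for matching several genes, and the handling of such reads is not given. Aldoa overlaps LOC103691235 on the same strand, which held 6 to 14 counts, and the rows that overlap Hk2 and Ldhb held 0.

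Other isoforms and steps of the route were described from a list of 32 genes, of which 30 were in the table and 23 were tested, while Hkdc1 and Tigar were not analysed here. In EASCs 10 rose and 7 fell, and in PASCs 9 rose and 7 fell, with medians of 0.19 in EASCs and 0.13 in PASCs, beside 0.01 and -0.01 for all genes in that order. The shares of all genes called were 35.5% up and 34.3% down in EASCs and 34.6% each way in PASCs. Where values come in pairs below, the PASCs value stands first. Gapdh, which makes 1,3-bisphosphoglycerate and has many near-identical copies, went from 1182 ± 36.3 CPM in SASCs to 3174 ± 182 in PASCs (log2 1.43 ± 0.06, adjusted p = 7.68e-18) and 2945 ± 21.3 in EASCs (1.32 ± 0.06, adjusted p = 4.16e-17). Pkm, the pyruvate kinase of most tissues, also with copies in the table, went from 1067 ± 27.95 to 2332 ± 68.6 and 1995 ± 42.6 CPM, and rose by 1.13 and 0.90 on the log2 scale (adjusted p = 3.85e-16 and 4.72e-14). Pgam1, the phosphoglycerate mutase of most tissues, rose by 0.75 and 0.64 (adjusted p = 7.36e-12 and 1.64e-10), while its muscle form Pgam2 fell by 1.72 and 1.51 from 2.76 ± 0.528 CPM (adjusted p = 1.76e-05 and 7.36e-05). Gpi, the isomerase between hexokinase and phosphofructokinase, rose by 0.39 in PASCs (adjusted p = 4.80e-07) and 0.19 in EASCs (adjusted p = 0.00333). Tpi1, which encodes triosephosphate isomerase, was listed at a mean of only 0.0721 CPM in SASCs, 0.422 in PASCs, and 0.265 in EASCs and could not be tested, and it is named here because of those values. Gapdh, of the next step, stood at 1182 CPM in SASCs. Whether the Tpi1 row holds all reads of its gene was not tested, so its values are not a measure of its expression.

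Lactate export and pyruvate entry were covered by 17 genes, of which 16 were tested. In EASCs 5 rose and 5 fell, and in PASCs 8 rose and 5 fell, with medians of -0.02 in EASCs and 0.14 in PASCs, beside 35.5% of all genes up and 34.3% down in EASCs and 34.6% each way in PASCs. Slc16a3 encodes MCT4, which exports lactate from glycolytic cells, and went from 30.4 ± 1.34 CPM in SASCs to 235 ± 16.3 in PASCs and 192 ± 4.63 in EASCs. The rise was 7.71-fold in PASCs (log2 2.95 ± 0.06, adjusted p = 2.72e-24) and 6.29-fold in EASCs (log2 2.65 ± 0.06, adjusted p = 1.88e-23). Slc16a3 overlaps Csnk1d on the other strand, which held 2633 to 4542 counts, and as the use of strand is not given, reads of the pair may have been counted for either gene. Slc16a1 encodes MCT1, which carries lactate in both directions, and fell by 0.53 in PASCs (adjusted p = 4.97e-09) and 1.14 in EASCs (adjusted p = 9.02e-16). Pc, pyruvate carboxylase, fell by 0.99 in PASCs (adjusted p = 1.14e-11) and 1.57 in EASCs (adjusted p = 1.04e-15), though it overlaps Lrfn4 at 576 to 1039 counts. Pdk1, which inhibits pyruvate dehydrogenase, rose by 0.67 and 0.42 (adjusted p = 3.20e-10 and 1.67e-06). Bsg, the chaperone of the lactate transporters, rose by 0.39 in EASCs (adjusted p = 3.90e-07) and fell by 0.14 in PASCs (edgeR adjusted p = 0.0303). Pdha1, a subunit of pyruvate dehydrogenase that overlaps other genes, rose by 0.28 in PASCs (adjusted p = 4.10e-05), and its EASCs value was -0.04 (adjusted p = 0.484).

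Side branches of the route moved in both directions. Of 6 tested genes of the pentose phosphate pathway, 3 rose and 2 fell in both comparisons, with medians of 0.04 in EASCs and 0.27 in PASCs, beside backgrounds of 35.5% up and 34.3% down in EASCs and 34.6% each way in PASCs. Tkt, the transketolase, rose by 0.54 and 0.29 (adjusted p = 3.03e-10 and 1.67e-05), Taldo1, the transaldolase, by 0.51 and 0.57 (adjusted p = 4.62e-08 and 6.89e-09), and Rpia, the ribose 5-phosphate isomerase, fell by 0.69 and 1.39 (adjusted p = 2.29e-07 and 7.29e-13). Of 11 tested genes of glycogen metabolism and gluconeogenesis, 5 rose and 2 fell in EASCs and 5 rose and 3 fell in PASCs, with medians of 0.38 in EASCs and 0.23 in PASCs, beside those same shares of all genes. Pck2, the mitochondrial PEP carboxykinase, rose by 1.67 in PASCs and 1.33 in EASCs (adjusted p = 2.61e-18 and 4.30e-16). Gys1, the glycogen synthase of non-hepatic cells, rose by 0.60 and 0.49 (adjusted p = 2.07e-10 and 9.97e-09), Pgm1, which links glucose 1-phosphate to glycolysis, by 0.65 and 0.38 (adjusted p = 1.13e-11 and 2.60e-07), and Pygl, a glycogen phosphorylase, by 0.41 and 0.77 (adjusted p = 3.68e-07 and 1.76e-12), while Ugp2, which makes UDP-glucose, fell by 0.80 and 0.69 (adjusted p = 3.25e-12 and 7.95e-11).

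**Figure D5:**
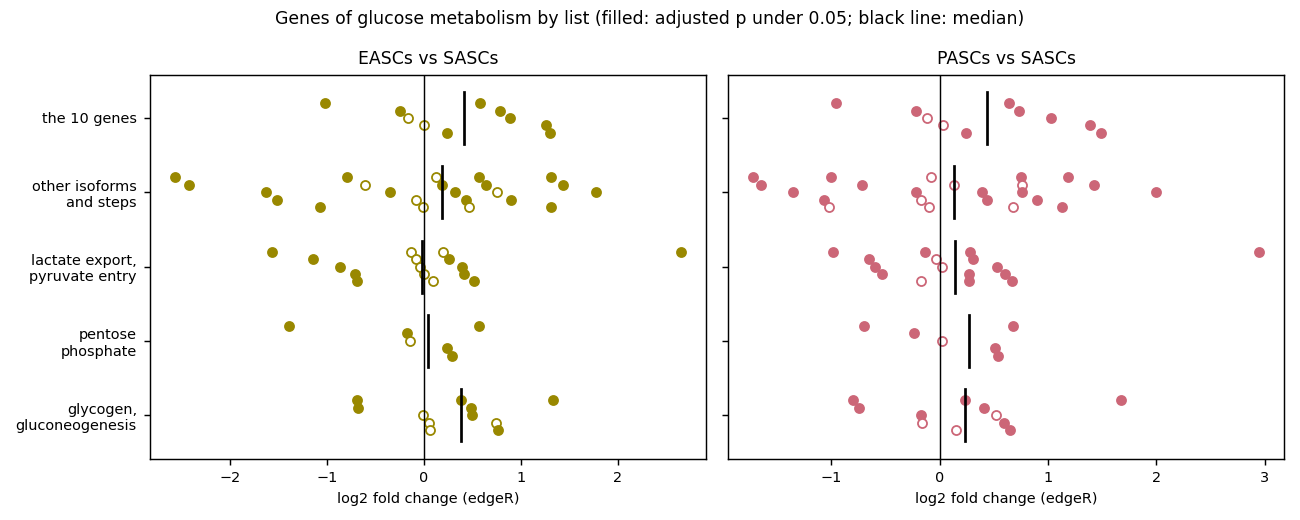
Log2 fold changes against SASCs (horizontal axes) of the 10 genes and of the tested genes of 4 lists, with filled points for adjusted p under 0.05 in edgeR and black lines for medians. The other isoforms spread from below -2 to near 2, and Slc16a3 is the point farthest right.

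Ldha, the member with the widest range on the log2 scale, was followed most closely over the 9 libraries by Eif5a, Eif3c, and Cdkn3, each with a Pearson r of log2 CPM of 0.999. At an r of at least 0.99 there were 222 genes, and at 0.95 there were 1494. The 9 points fall in 3 groups that differ in many genes, so these values describe the group levels and carry no p.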

How the data were processed

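RNA-seq counts of 9 cultures (SASCs, PASCs, and EASCs, 3 each) were analysed. The authors trimmed paired reads, aligned them to rn6 with TopHat, and deposited counts per gene, as whole numbers without normalization. The submitters' processing notes list rn5, and the positions use contig names of rn6. The counting tool, the use of strand, and the handling of reads that match several genes are not given in the sources used here. Groups and replicate numbers came from the sample titles. Same-numbered samples had deviation correlations of -0.0301 to 0.0712, so no block was used.

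Counts were scaled by TMM (factors 0.740 to 1.23), filtered by filterByExpr to 14770 genes, and tested in 1 model of 9 samples with the quasi-likelihood test of edgeR 4.0.16 in R 4.3.3. The Benjamini-Hochberg adjustment covered all genes of a comparison, calls were made at an adjusted p under 0.05, and also with a fold change above 2. The SE is the absolute log2 fold change divided by the square root of the F statistic. CPM are TMM-scaled, and levels per length divide them by the gene model length in kb. At 3 counts a gene stands at 0.104 to 0.159 CPM, and such limits cover counting error only. The method was tested on simulated data. Isozyme ratios were compared by exact permutation tests. The alternatives were DESeq2 1.42.0, limma 3.58.1 on log2(CPM + 1) and log2(CPM + 0.1), total counts, upper quartile scaling, removal of ribosomal RNA rows, no filter, 2-group fits, the replicate number as a block, copies added, a 1.5-fold threshold, and each replicate left out.

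The members and lists were chosen with earlier results of these data known. Named were all members, per list and comparison the 3 genes with the largest absolute change at a mean of at least 1 CPM, list genes over 100 CPM, copies with a mean of at least 10 counts, and the 3 genes that correlate best with the member of widest log2 range. Promoters (250 bases upstream) are those of RefSeq on GRCr8, matched by gene ID, and no coordinate was converted between builds. Some genes that this rule selects are not reported here.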

Additional observations from a re-analysis of the deposited data

How the results depend on the processing

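Of the 30 member values (10 genes in 3 comparisons), all kept direction and call under limma with either pseudocount, with copies added, and with the replicate number as a block. With the block, the counts of called members were also the same (6 higher and 2 lower in EASCs and in PASCs against SASCs), and no log2 value moved by more than 0.00392. The largest shift was 0.0176 with limma on log2(CPM + 1), 0.00501 on log2(CPM + 0.1), and 0.00725 with copies added. Scaling by total counts, which include ribosomal RNA, moved values by up to 0.40 and changed 12 of the 30. It turned Hk1 to -0.16 in EASCs and -0.0832 in PASCs, Pfkp to -0.39 and -0.30, and Ldhb in EASCs against PASCs to -0.0105, where the median of all genes was at -0.39, -0.33, and -0.08. The members called then were 4 higher (Hk1 and Aldoa lost) and 4 lower in EASCs against SASCs, with 0 higher past 2-fold, 4 higher (Hk1 and Aldoa lost) and 3 lower in PASCs against SASCs, with 2 higher and 1 lower past 2-fold, and 0 higher and 0 lower in EASCs against PASCs. Among all genes past 2-fold, the share that was higher went from 48.8% to 28.3% in EASCs and from 44.7% to 28.5% in PASCs.

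Values near 0 changed sign elsewhere. Pfkp in EASCs against SASCs was -0.0144 with DESeq2. In EASCs against PASCs, Hk1 was 0.0253 with upper quartile scaling, 0.000688 with ribosomal RNA rows removed, and 0.00120 with only the groups compared, and Pfkp was 0.00314 with upper quartile scaling. With 1 replicate left out, Pfkp ran from -0.0206 (without EASCs 3) to 0.0221 in EASCs against SASCs, from -0.00847 (without PASCs 2) to 0.0828 in PASCs against SASCs, and from -0.0768 to 0.0145 in EASCs against PASCs, where Hk1 ran from -0.0258 to 0.0134. With a 1.5-fold threshold, 4 members were higher (21.3% of all genes) and 1 lower (22.1%) in EASCs, and 5 were higher (20.8%) and 1 lower (22.6%) in PASCs. Upper quartile scaling left 0 members lower past 2-fold in EASCs. Without the filter, 1 member was lower at any fold in PASCs against SASCs and 0 were higher at any fold in EASCs against PASCs. With 1 replicate left out, the number of members lower past 2-fold was 0 to 1 both for EASCs and for PASCs, those lower at any fold in PASCs 1 to 2, those higher past 2-fold in PASCs 2 to 3, and those higher in EASCs against PASCs 0 to 1. The isozyme ratios kept their direction in every run with a replicate left out.

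Over all genes past 2-fold, limma on log2(CPM + 1) called 2648, 2542, and 506 in the 3 comparisons, where edgeR called 4105, 3979, and 1091, and the block gave 4061, 3944, and 1067. The cause of these changes was not tested. Ldhb had 330 to 600 counts per library and the widest SE of the members, and the part of depth in that SE was not tested.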
